A study of Sus scrofa with 70 samples.

Results

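The microRNAs (miRNAs) of the boar epididymis (Epi) were compared with those of the accessory glands, namely the vesicular gland (VG), the prostate gland (PG) and the bulbourethral gland (BG). The 24 small RNA samples of these organs were chosen by their tissue labels, out of 30 small RNA samples and 70 samples in the whole series. They comprise 6 Epi samples and 18 accessory gland samples, with 6 per gland. Each gland has 3 samples of the Banna mini-pig inbred line (BMI) and 3 of Diannan small-ear pigs (DSE), the non-inbred stock from which BMI was bred. All pigs were untreated 12-month adult males kept in a climate-controlled room. Neither the stretch of epididymis that was cut nor the link between the numbers of the samples and individual boars is stated, so p-values measure the spread between these samples. The table held 743 entries, 444 of them known pig miRNAs with 379 distinct names and 299 of them predicted hairpins. The entries with at least 1 RPM (reads per 1000000 miRNA reads) in at least 3 of the 24 libraries numbered 436, of which 351 were known and 85 predicted.

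miRNAs are short RNAs that guide Argonaute proteins to messenger RNAs, mainly by pairing of the seed, bases 2 to 8 from the 5′ end, and that lower the output of those messenger RNAs. The epididymis is a long coiled duct in a coat of smooth muscle in which sperm mature and are stored, and its epithelium changes from the head to the tail of the duct. The accessory glands secrete most of the fluid of the boar ejaculate.

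Mature sequences were read from the RefSeq annotation of Sscrofa11.1, the assembly on which the submitters' processing notes also rest. It held a position for 226 of the 296 known names tested and for 38 of the 50 known names that differed below. The first set is shown because its members lay higher in every Epi library than in any accessory gland library. Capitals mark the seed.
ssc-miR-615: uCCGAGCCugggucucccucu
ssc-miR-129a-5p: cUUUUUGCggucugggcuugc
ssc-miR-129b: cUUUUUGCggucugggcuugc
ssc-miR-129a-3p: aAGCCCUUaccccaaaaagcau
ssc-miR-744: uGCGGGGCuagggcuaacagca
miR-615 lies at chr5:19246820-19246840 on the plus strand, in an intron of HOXC5 on the same strand. miR-129a-5p (chr2:18724269-18724289, minus strand) and miR-129a-3p (chr2:18724226-18724247, minus strand) come from the arms of 1 hairpin in an intron of a lncRNA. miR-129b (chr18:20157266-20157286, minus strand) lies outside annotated genes and has the same letters as miR-129a-5p, so reads of these loci cannot be told apart. miR-744 lies at chr12:56464854-56464875 on the plus strand, in an intron of MAP2K4.

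The second set holds muscle miRNAs, whose loci sit in pairs, and the third holds miRNAs that were abundant or lower in the epididymis.
ssc-miR-143-3p: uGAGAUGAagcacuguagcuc
ssc-miR-145-5p: gUCCAGUUuucccaggaaucccuu
ssc-miR-1: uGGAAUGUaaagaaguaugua
ssc-miR-133a-3p: uUGGUCCCcuucaaccagcug
ssc-miR-148a-3p: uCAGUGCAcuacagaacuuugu
ssc-miR-146b: uGAGAACUgaauuccauaggc
ssc-miR-96-5p: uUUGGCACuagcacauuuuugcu
ssc-miR-10a-5p: uACCCUGUagauccgaauuugu
miR-143-3p (chr2:150578786-150578806) and miR-145-5p (chr2:150580141-150580164) lie on the plus strand within an intron of IL17B, which is transcribed from the other strand. miR-1 (chr17:61894099-61894119, plus strand) lies outside annotated genes, and miR-133a-3p has a copy beside it (chr17:61904841-61904861, plus strand) and another at chr6:106998910-106998930 on the minus strand, in an intron of a lncRNA. miR-148a-3p lies at chr18:46415256-46415277 on the plus strand, miR-146b at chr14:113446874-113446894 on the plus strand, miR-96-5p at chr18:18982516-18982538 on the plus strand and miR-10a-5p at chr12:24833694-24833715 on the minus strand, each outside annotated genes.

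The libraries held about 13063400 to 21671700 reads on miRNAs, so that 1 read was worth 0.0461 to 0.0765 RPM. The labels were checked against messenger RNA in the same-titled RNA-seq libraries, in length-normalised transcript levels (TPM). The summed TPM of 10 epididymis epithelium genes was 2289 to 49253 in Epi and at most 22.8 elsewhere. ADAM7, a sperm maturation gene, ranged from 468 to 2780 in Epi. GPX5, a secreted peroxidase, ranged from 4.42 to 8449 among the Epi libraries. CRISP1 was at 21.3 TPM in DSE Epi replicate 1 and at 1100 or more in the other 5. In the study's quality control DSE Epi replicate 1 had the lowest median transcript integrity of the RNA-seq libraries. The Epi libraries therefore differed widely in genes of the duct's own epithelium. Genes of accessory gland secretion summed to 4858 TPM in BMI Epi replicate 1 and 1481 TPM in DSE Epi replicate 2, against 45.7 to 410 TPM in the other 4 Epi libraries. BMI PG replicate 2 went partly against its label, with 79994 TPM of the vesicular gland spermadhesin PSP-I, against at most 3.84 TPM in the other PG libraries. In miRNAs the highest r of BMI PG replicate 2 with a library of another gland was 0.987, and its median r with its own gland was 0.979. BMI VG replicate 1 and BMI PG replicate 3 stood apart in miR-143-3p, as given below, and for each the highest r with another gland was 0.965 and the median with its own 0.958. The highest r with another gland also passed the median with the own gland in DSE Epi replicates 2 and 3, BMI VG replicate 2 and DSE BG replicate 3. These correlations run over the tested entries and share the same abundant miRNAs.

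More miRNAs were higher than lower in the epididymis. On log2(RPM + 1), limma with gland and breed as terms set Epi against the mean of the 3 accessory glands, and an entry was called where the p adjusted after Benjamini and Hochberg was under 0.05 and Epi differed by 1 or more on the log2 scale. Of 436 entries, 62 were called higher (14.2%) and 14 lower (3.21%). With 1 entry per mature name, 51 of 379 names (13.5%) were higher, 39 known and 12 predicted, and 14 (3.69%) were lower, 11 known and 3 predicted. Of the 51 higher names, 8 (1 known, miR-345-5p, and 7 predicted) had fewer than 3 accessory libraries at 1 RPM and so passed the filter on low values only through their Epi values. The median log2 fold change of all entries was 0.15. With size factors in place of RPM, which moved that median to -0.02, 32 names (8.44%) were higher and 23 (6.07%) lower. Over all entries the share of calls that were higher was 81.6% with RPM and 60.3% with size factors. Without BMI PG replicate 2 the calls were 65 higher and 15 lower, and without BMI VG replicate 1 and BMI PG replicate 3 they were 55 and 17.

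The difference was unlike from gland to gland. Against VG 103 entries were higher (23.6%) and 15 lower (3.44%). Against PG 36 were higher (8.26%) and 26 lower (5.96%), and against BG 66 were higher (15.1%) and 25 lower (5.73%). Of the 62 entries higher than the accessory mean, 14 were called against each of the 3 glands, 31 against 2 and 17 against 1. Among the 14 lower entries, 3 were called against each gland, 10 against 2 and 1 against 1. With size factors 62 entries were higher and 55 lower than VG, and 39 were lower than BG. The PG counts without BMI PG replicate 2 were 45 higher and 35 lower.

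**Figure D1:**
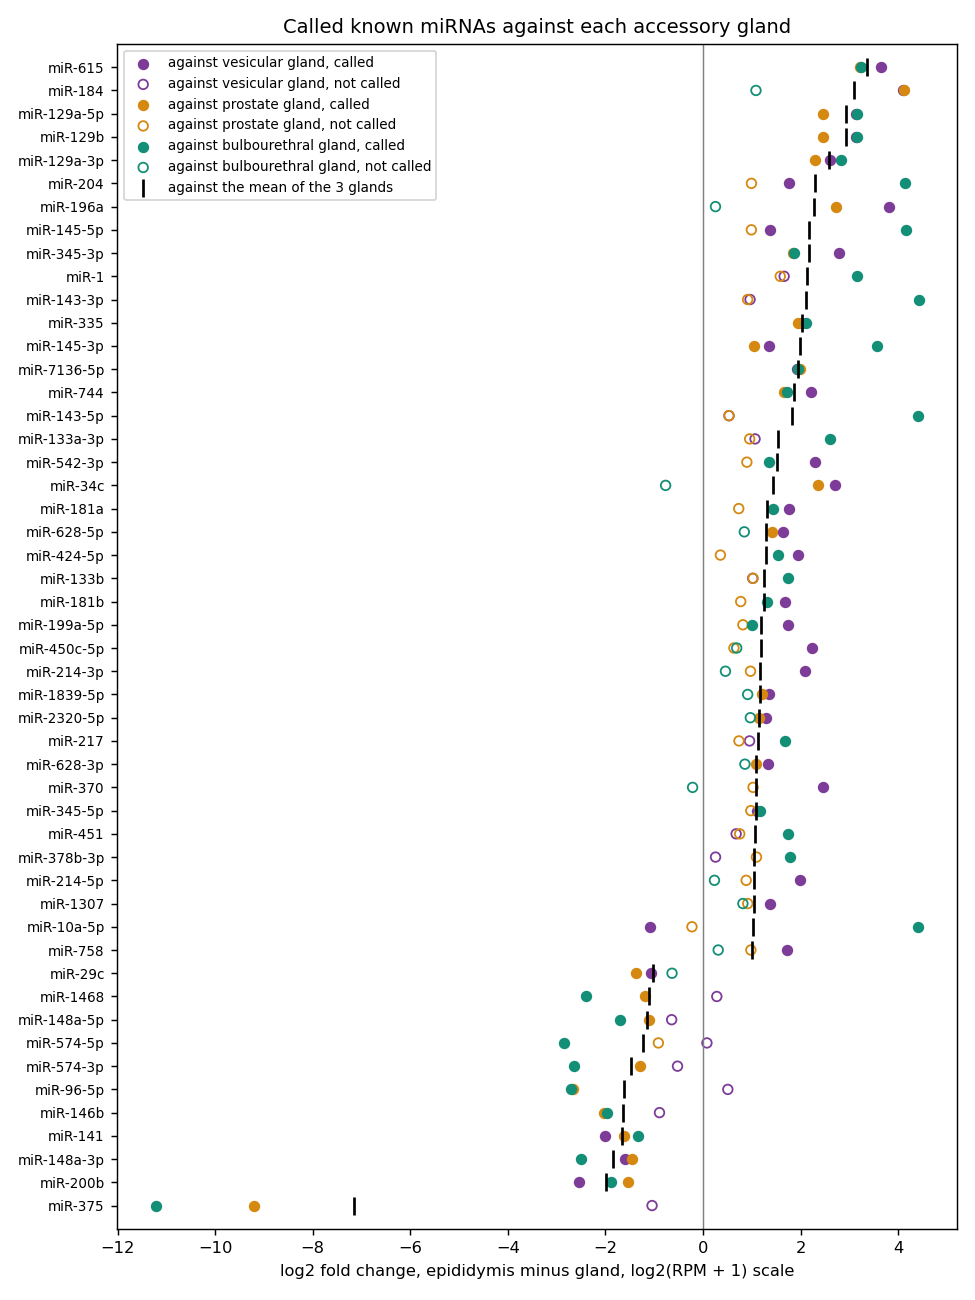
Log2 fold change of Epi minus each accessory gland (x axis, log2(RPM + 1) scale) for the 50 known names called against the accessory mean (y axis). Filled points were called against that gland, open points were not, and bars mark the difference from the mean of the 3 glands. miR-10a-5p has points on either side of 0, and the miR-375 points against PG and BG lie far to the left.

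Only 7 entries (1.61% of 436) were called higher and had all 6 Epi libraries above all 18 accessory libraries, and none had all 6 below. These were miR-615, miR-129a-5p, miR-129b, miR-129a-3p, miR-744 and the predicted hairpins chr13_10330 and chrX_49198. The 2 hairpins are among the 8 names that passed the filter only through Epi, so that their place here is a description. miR-615, an intronic miRNA of the HOXC cluster, was at 5.84, 11.4 and 32.04 RPM (lowest, median and highest) in Epi. It reached at most 0.75 RPM in VG, 1.52 in PG and 1.11 in BG. Its log2 fold change was 3.37 (SE 0.24, limma adjusted p = 3.19e-11), and it was called against each gland. The messenger RNA of its host gene HOXC5, a homeobox factor, had a median of 3.37 TPM in Epi, 0 in VG and PG and 0.0539 in BG.

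The miR-129 hairpins gave the next separated entries. miR-129a-5p was at 72.3, 137 and 269 RPM in Epi, where all 6 libraries lay above the highest accessory library, a PG library at 32.3 RPM. Its medians were 13.8 RPM in VG, 22.2 in PG and 13.8 in BG. The log2 fold change was 2.92 (SE 0.25, limma adjusted p = 1.16e-09), and miR-129b had the same value, as its sequence requires. The other arm, miR-129a-3p, was scarcer, at 4.08 to 14.6 RPM in Epi and at most 2.47 RPM in any accessory library, and differed by 2.58 (SE 0.24, limma adjusted p = 6.76e-09). Both arms of the hairpin were thus called in the same direction.

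miR-744, which lies in an intron of the kinase gene MAP2K4, was at 91.6 to 287 RPM in Epi and at 10.4 to 85.6 RPM in the accessory glands. Its log2 fold change was 1.86 (SE 0.32, limma adjusted p = 8.23e-05). The lowest VG and PG values, 10.4 and 21.8 RPM, belonged to BMI VG replicate 1 and BMI PG replicate 3. MAP2K4 messenger RNA had medians of 14.2 TPM in Epi, 6.56 in VG, 10.3 in PG and 13.8 in BG. chrX_49198 was low everywhere, at 0.67 to 1.98 RPM in Epi and at most 0.57 RPM elsewhere. chr13_10330 had no read in the 18 accessory libraries and 0.07 to 12.4 RPM in Epi, so that no fold change is given.

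**Figure D2:**
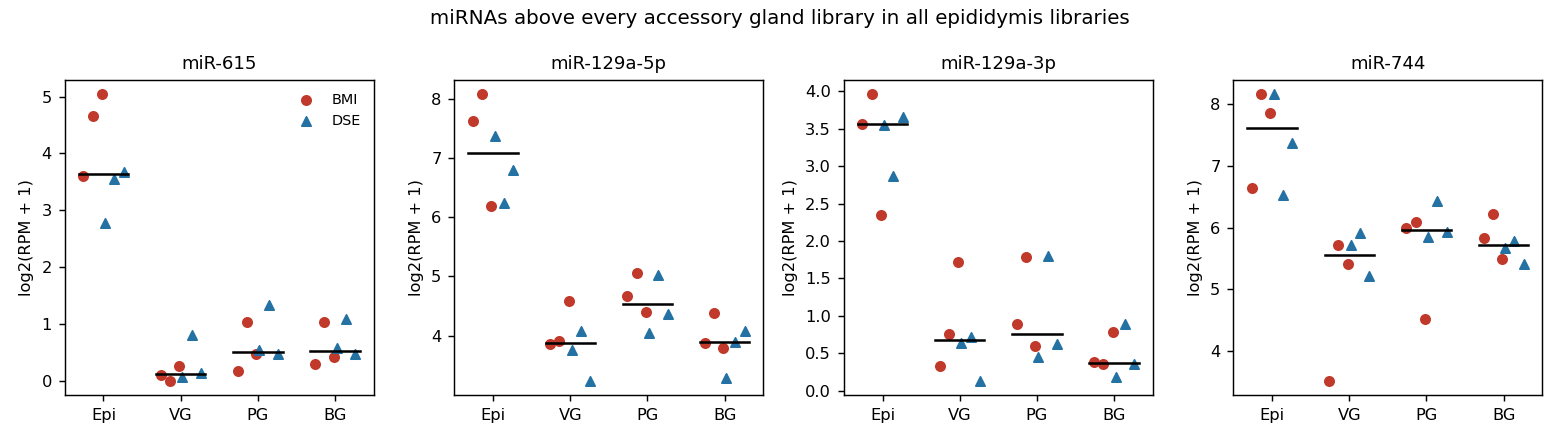
log2(RPM + 1) of 4 miRNAs (y axis) by gland (x axis), with BMI libraries as circles, DSE libraries as triangles and the median of 6 libraries as a bar. In each panel the 6 Epi points lie above all 18 accessory points, and miR-744 has its lowest points in VG and PG.

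The rest of the miRNAs described here were chosen after their values were seen. miR-143 and miR-145, the pair known from smooth muscle, gave 4 mature names, and all 4 were called higher than the accessory mean with RPM and with size factors, against 13.5% and 8.44% of all names (median log2 fold change 2.05, against 0.15 over all entries). miR-143-3p was the most abundant of them, at 231391, 485346 and 788479 RPM in Epi. Its medians were 330030 RPM in VG, 312476 in PG and 21001 in BG, and the Epi range overlapped VG and PG but not BG. Its log2 fold change was 2.10 (SE 0.41, limma adjusted p = 0.000421) against the accessory mean, 4.43 against BG and 0.96 and 0.91 against VG and PG, where it was not called. Without BG the call was lost.

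miR-145-5p, from the same cluster, was at 1938, 4368 and 9547 RPM in Epi and at 132.7 to 408 RPM in BG. It was called against VG (log2 fold change 1.38) and BG (4.15), and differed from PG by 0.99. With size factors the call against VG was lost. Across the 24 libraries, messenger RNA of 6 smooth muscle genes moved with these values. The summed TPM was 1799 to 18434 in Epi, with medians of 1798 in VG, 1535 in PG and 118 in BG. BMI VG replicate 1 (421 TPM) and BMI PG replicate 3 (141.8 TPM) had the least smooth muscle messenger RNA of their glands and the least miR-143-3p, at 41804 and 30078 RPM. BMI PG replicate 1, with 278 TPM, nevertheless had 293936 RPM of miR-143-3p. Within Epi, DSE replicate 2 had the most of both and BMI replicate 2 the least of both. The part of muscle content in these differences was not tested, and fewer cells of a type and less RNA per cell cannot be told apart in bulk tissue.

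**Figure D3:**
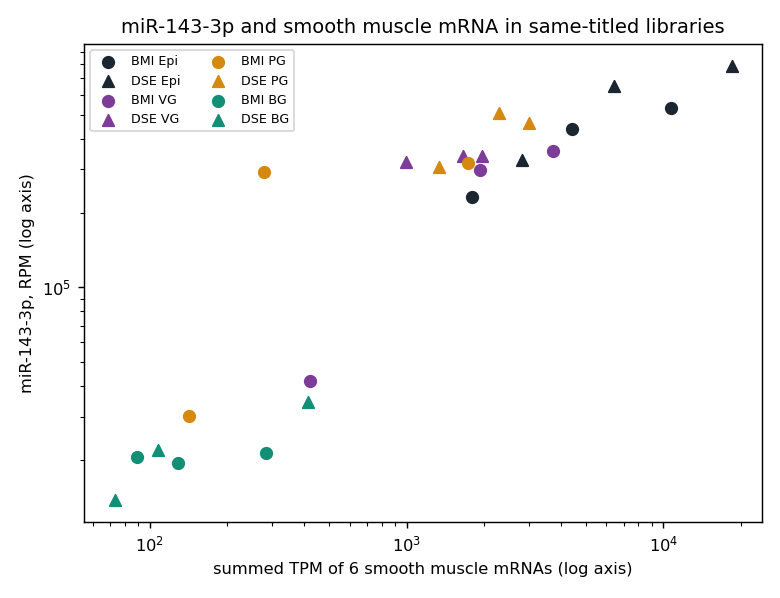
miR-143-3p in RPM (y axis, log scale) against the summed TPM of 6 smooth muscle mRNAs (x axis, log scale) in same-titled libraries, by gland colour and breed symbol. BG libraries lie at the lower left together with BMI VG replicate 1 and BMI PG replicate 3, and Epi libraries reach the upper right.

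Of the 6 tested names of the skeletal muscle list, 3 were called higher than the accessory mean (13.5% of all names were) and none lower. None of the 6 was called against PG. miR-1, known from skeletal and heart muscle, was at 1055, 2092 and 5499 RPM in Epi, and its medians were 842 RPM in VG, 916 in PG and 195 in BG (log2 fold change 2.13, SE 0.61, limma adjusted p = 0.0095). miR-133a-3p was at 67.8, 106 and 287 RPM in Epi and had medians of 66.8, 66.4 and 13.3 RPM in VG, PG and BG. Both were called against BG but not against VG or PG. DSE BG replicate 3 stood apart, with 4651 RPM of miR-1 and 260 RPM of miR-133a-3p. The same-titled library also had the most skeletal muscle messenger RNA of all 24, at 1162 TPM. Among the Epi libraries BMI replicate 1 had the most miR-1, the most miR-133a-3p and the most skeletal muscle messenger RNA, at 562 TPM against an Epi median of 16.7 TPM. The part of skeletal muscle in these values was not tested. The call of miR-133a-3p was lost without BMI Epi replicate 1 or DSE Epi replicate 3. In edgeR on whole reads miR-1, miR-133a-3p and miR-133b were not called.

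**Figure D4:**
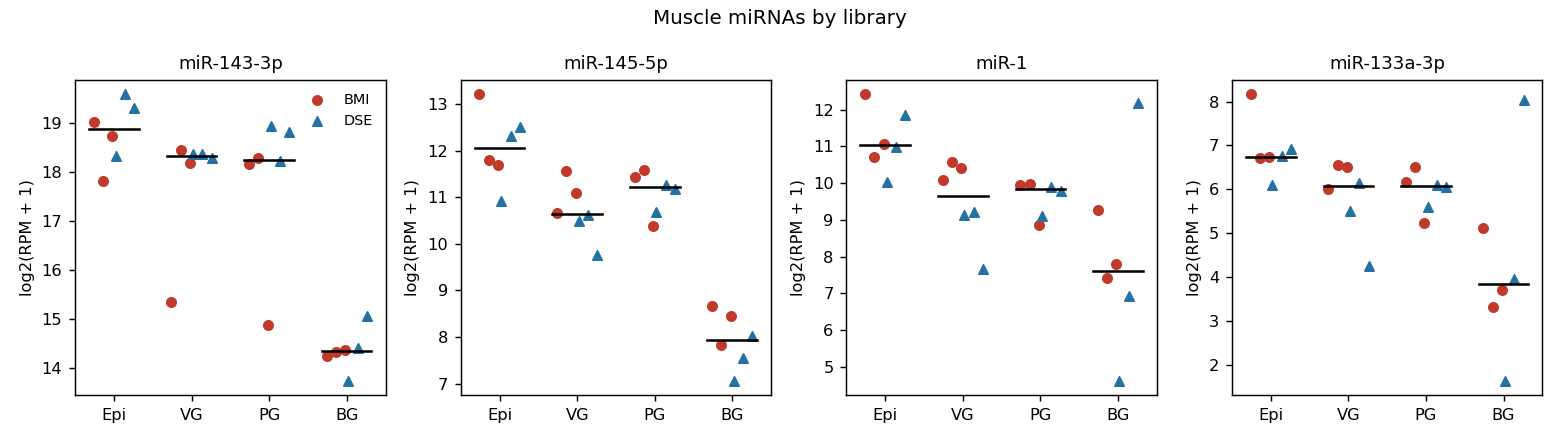
log2(RPM + 1) of 4 muscle miRNAs (y axis) by gland (x axis), with BMI libraries as circles, DSE libraries as triangles and the median of 6 libraries as a bar. The BG median is the lowest in each panel, with 1 DSE library of BG high in the miR-1 and miR-133a-3p panels, where BG overlaps VG and PG, and 1 BMI library each of VG and PG lies low in the miR-143-3p panel.

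miRNAs of the HOX clusters, which lie among the homeobox genes that pattern the body axis, differed from member to member. Of 6 tested names, 3 were higher than the accessory mean with RPM and 2 with size factors (13.5% and 8.44% of all names were), and none was lower. miR-196a was at 0.56, 35.5 and 115 RPM in Epi, with medians of 0.68 RPM in VG, 2.53 in PG and 24.9 in BG. It was called against VG (log2 fold change 3.82) and PG (2.73), and differed from BG by 0.26. miR-10a-5p was at 4673, 16740 and 52551 RPM in Epi, with medians of 33748 RPM in VG, 21013 in PG and 838 in BG. It was called lower than VG (log2 fold change -1.09) and higher than BG (4.41), and its value of 1.03 against the accessory mean therefore describes no gland. That call was lost without BMI Epi replicate 2, DSE Epi replicate 1 or DSE PG replicate 1. miR-10b, at medians of 25580 RPM in Epi, 22335 in VG, 11323 in PG and 17593 in BG, was called against PG only. Besides miR-10a-5p, the other arm miR-10a-3p was called below VG and above BG, whereas miR-127, miR-182, miR-183 and miR-664-5p were called above VG and below BG. With size factors miR-182 and miR-664-5p were not called above VG.

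Besides the separated miRNAs, miR-345-3p (log2 fold change 2.17), miR-335, miR-145-3p (1.99) and miR-7136-5p (1.95) were called higher against each of the 3 glands with RPM. With size factors miR-145-3p was called against BG but not against VG or PG. miR-204, from an intron of the channel gene TRPM3, was at 57.6, 241 and 728 RPM in Epi and had medians of 63.7, 87.1 and 10.8 RPM in VG, PG and BG (log2 fold change 2.30, SE 0.45, limma adjusted p = 0.000384). It was called against VG and BG (log2 fold change 4.14) but not against PG (0.99). TRPM3 messenger RNA had medians of 2.52 TPM in Epi, 0.203 in VG, 0.267 in PG and 0.046 in BG. miR-335, from an intron of the imprinted gene MEST, was at 0.65 to 15.1 RPM in Epi and differed by 2.03 (SE 0.33, limma adjusted p = 5.32e-05). MEST messenger RNA had medians of 3.89 TPM in Epi and 0.2, 0.155 and 0.273 TPM in VG, PG and BG. The host genes TRPM3, MEST, HOXC5 and MAP2K4 each had their highest median in Epi. The differences in host messenger RNA were not tested.

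miR-181a and miR-181b, which share the seed ACAUUCA with miR-181c and miR-181d-5p, were higher by 1.31 and 1.25, with calls against VG and BG. miR-34c, known from ciliated and male germ cells, was at 1.82, 45.9 and 93.3 RPM in Epi and had medians of 3.17 RPM in VG, 3.80 in PG and 44.1 in BG. It was called against VG (log2 fold change 2.70) and PG (2.35), and differed from BG by -0.77. Messenger RNA of 7 spermatid and sperm genes summed to 1.27 to 1045 TPM in Epi and to at most 7.67 TPM in the accessory glands. The library with the lowest miR-34c in Epi, DSE replicate 2, also had the lowest sum, and the one with the highest, BMI replicate 2, the highest. The libraries between did not keep this order, since BMI Epi replicate 3 had 78.0 RPM of miR-34c with 19.5 TPM and BMI Epi replicate 1 had 12.7 RPM with 113 TPM. In BG miR-34c was at 34.8 RPM or more while that sum did not pass 7.67 TPM. The part of germ cell content in the miR-34c values was not tested. The call of miR-34c against the accessory mean (log2 fold change 1.43) was lost without BMI Epi replicate 2 or 3 or DSE Epi replicate 1.

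Among the miRNAs lower in the epididymis, miR-375 differed most. miR-375, known from endocrine and glandular epithelia, was at 1.26, 5.94 and 58.8 RPM in Epi and at 6.30, 16.7 and 47.5 RPM in VG. It was at 2486, 4487 and 12320 RPM in PG and at 10052, 22000 and 34228 RPM in BG. The log2 fold change was -9.21 against PG, -11.22 against BG and -1.04 against VG, where it was not called with RPM but was called lower with size factors (-7.16 against the accessory mean, SE 0.46, limma adjusted p = 6.82e-12). The ranges of Epi and VG overlapped, and PG and BG were high and did not overlap with them.

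Of the 3 tested names of the miR-200 family, which keeps epithelial cells in their state by repressing ZEB1 and ZEB2, 2 were lower than the accessory mean (3.69% of all names were) and none higher. miR-200b was at 1614, 5163 and 21380 RPM in Epi, with medians of 36056 RPM in VG, 21639 in PG and 22534 in BG. It was called lower than each gland (log2 fold change -1.98 against the mean, SE 0.30, limma adjusted p = 1.64e-05). miR-141 was at 14.2, 84.5 and 257 RPM in Epi and had medians of 297, 248 and 190 RPM in VG, PG and BG (log2 fold change -1.65), and it too was called lower than each gland. miR-429 differed by 0.05 (SE 0.32) with RPM and -0.16 with size factors and was not called. Messenger RNA of 4 epithelium genes summed to medians of 941 TPM in Epi, 743 in VG, 1382 in PG and 1811 in BG. The genes differed in their order among the glands. EPCAM, an epithelial adhesion molecule, and the keratin KRT18 had their lowest medians in VG (181 and 37.4 TPM), where miR-200b was highest. The keratin KRT8 had its lowest in Epi (254 TPM), and the cadherin CDH1 had its highest in VG (157 TPM). The part of epithelial content in these differences was not tested.

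miR-148a-3p, a member of the miR-148 and miR-152 family, was the most abundant miRNA of many libraries. It was at 17525, 144953 and 384746 RPM in Epi, with medians of 348164 RPM in VG, 271713 in PG and 575774 in BG. It was called lower than each gland (log2 fold change -1.85 against the mean, SE 0.42, limma adjusted p = 0.00142), while its range in Epi overlapped VG and PG but not BG. The other arm, miR-148a-5p, was lower by -1.15 on the log2 scale. miR-148b-3p and miR-152, which share its seed CAGUGCA, differed by -0.57 and -0.61 and were not called against the mean, but both were called lower than BG (log2 fold change -1.26 and -1.98). Because miR-143-3p and miR-148a-3p take up most of a library, RPM of all other entries depend on them. With both left out of the RPM totals, an alternative added after seeing the data, 106 entries were higher and 12 lower among 505 tested.

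miR-146b, known as a brake on inflammatory signalling, was at 22.3, 58.9 and 348 RPM in Epi, with medians of 121 RPM in VG, 252 in PG and 241 in BG (log2 fold change -1.63). It was the 1 name of 7 in the leukocyte list that was called against the accessory mean. Of the 7, 4 were lower than PG (5.96% of all entries were), 1 was lower than BG (5.73%) and 1 was higher than VG (23.6%). Leukocyte messenger RNA was at 6.75 to 107.5 TPM in Epi and 6.76 to 46.5 TPM elsewhere. miR-96-5p was at 6.16, 63.6 and 527 RPM in Epi and had medians of 38.3 RPM in VG, 367 in PG and 387 in BG (log2 fold change -1.62). Both miR-146b and miR-96-5p were called against PG and BG but not against VG with RPM. With size factors miR-146b was also called lower than VG. The call of miR-96-5p against the mean was lost without BMI Epi replicate 1 or 3 or DSE Epi replicate 2. Against the accessory mean miR-574-3p and miR-574-5p differed by -1.48 and -1.23, miR-1468 by -1.10 and miR-29c by -1.02. miR-574-5p was called lower only than BG (-2.86) and differed from VG by 0.08. miR-574-3p and miR-1468 were called lower than PG and BG but not than VG, from which miR-1468 differed by 0.28. miR-29c was called lower than VG and PG but not than BG. The predicted hairpins chr6_32302, chr5_30680 and chr13_8960 differed by -1.85, -1.27 and -1.05, and the second of them was at 527.8 to 9928 RPM in Epi.

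**Figure D5:**
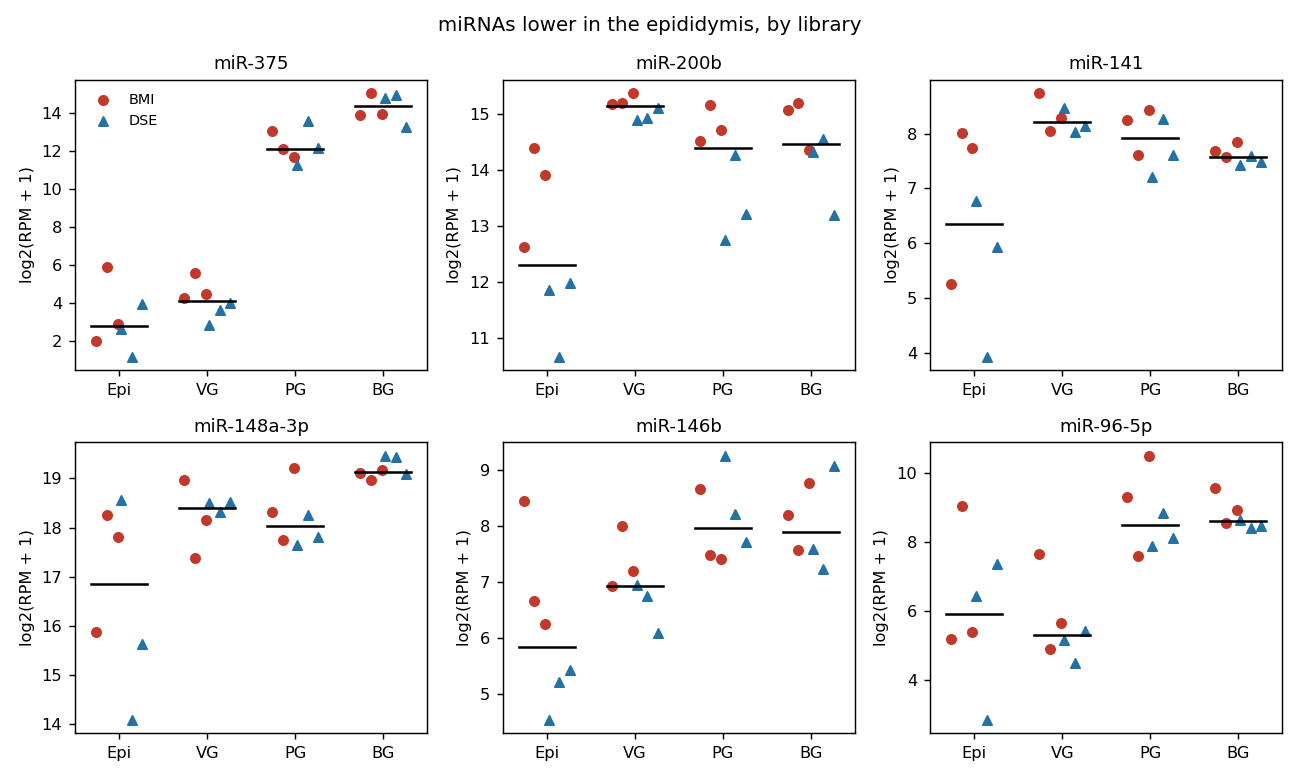
log2(RPM + 1) of 6 miRNAs that were lower in Epi (y axis) by gland (x axis), with BMI libraries as circles, DSE libraries as triangles and the median of 6 libraries as a bar. miR-375 is low in Epi and VG and high in PG and BG, and the Epi points of the other 5 are widely spread.

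The remaining families were described by counts. In the let-7 family 11 names were tested and none was called against the accessory mean or any gland with RPM, with a median log2 fold change of -0.10. With size factors let-7g was called lower than BG. Against the accessory mean none was called among the 9 names of the miR-30 family, the 11 of the miR-17-92 group, the 6 of the miR-99, miR-100 and miR-125 group, the 6 of the miR-23, miR-27 and miR-24 clusters, the 6 of the miR-532 and miR-188 cluster, the 3 of miR-221 and miR-222 and the 2 of miR-126. Against single glands, 3 names of the miR-30 family, 1 of the miR-17-92 group and 1 of miR-126 were lower than PG, and 1 of the miR-17-92 group was lower than VG. In the miR-99, miR-100 and miR-125 group 1 of the 6 names was called higher than VG, 1 than PG and 1 than BG. All 3 names of miR-221 and miR-222 were higher than BG and 1 was higher than PG, and 4 of the 6 of the miR-532 and miR-188 cluster were higher than VG. Over all entries 23.6% were higher than VG, 8.26% than PG and 15.1% than BG with RPM. Lower with RPM were 3.44% than VG, 5.96% than PG and 5.73% than BG. With size factors all 3 names of miR-221 and miR-222 were lower than VG, and 1 name of the miR-532 and miR-188 cluster was higher than VG. Of all 436 entries, 62 were higher and 55 lower than VG with size factors. With size factors 1 name each of the miR-30 family and the miR-17-92 group was lower than the mean (6.07% of all names were) and 1 each lower than BG. In the miR-30 family 2 names were then lower than VG and 4 than PG. In the miR-17-92 group 3 were then lower than VG and 2 than PG. Of all 436 entries, 33 were lower than PG and 39 lower than BG with size factors. In the miR-424 and miR-503 cluster on chromosome X, 3 of 7 names were higher than the accessory mean with RPM and 2 with size factors, and all 7 were higher than VG with RPM and with size factors (with RPM, 13.5% of all names and 23.6% of all entries were). The list for the DLK1-DIO3 cluster had 3 of 17 names higher than the mean with RPM, near the share of all names, and none with size factors, while 11 of the 17 were higher than VG and 2, miR-127 and miR-493-3p, were lower than BG. By their RefSeq positions miR-2320-5p, miR-2320-3p and miR-2483 lie on other chromosomes than the cluster. Among the other 14 names, 10 of which were not matched to a RefSeq position, 2 were higher than the mean and 10 higher than VG. The red cell miRNA miR-451 was higher by 1.06, a call lost with size factors and without 1 of 5 Epi libraries (DSE replicate 1 excepted), DSE VG replicate 3, BMI PG replicate 1 or DSE BG replicate 3, and red cell messenger RNA was at 100.1 to 2679 TPM in Epi and at most 195 TPM elsewhere. No name of the miR-506 and miR-888 clusters, known from the epididymis of other mammals, was in the table.

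Of 30 groups of at least 2 tested hairpins within 10000 bases on 1 strand, 9 held a called name. Of all names 13.5% were higher and 3.69% lower, but these shares are per name. A group holds several names, and miR-181a and miR-181b count in more than 1 group, so the count of groups is only a description. The group of miR-183, miR-96-5p and miR-182 had 1 name called lower with RPM and all 3 with size factors, miR-181a and miR-181b, which lie together at both of their loci, were both called higher, and the group of miR-143 and miR-145 had all 4.

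The epididymis difference was also compared between breeds, as the difference in BMI minus that in DSE. The test called 1 entry, miR-184 (0.229% of 436), and 38 entries had an unadjusted p below 0.05 (37 with edgeR, which called none). miR-184, known from the cornea and the lens, was at 152, 933 and 1052 RPM in the BMI Epi libraries and at 0.97, 36.0 and 164 RPM in the DSE ones. In BG it was at 10.02, 14.9 and 36.0 RPM in BMI and at 50.9, 154 and 379 RPM in DSE. In PG it was at 0.55, 0.72 and 3.86 RPM in BMI and at 10.8, 14.5 and 26.2 RPM in DSE. In VG the breeds overlapped, with 0.53 to 11.3 RPM in BMI and 2.06 to 14.2 RPM in DSE. Its log2 fold change was 6.46 in BMI and -0.25 in DSE, a difference of 6.70 (limma adjusted p = 0.0197). Without BMI Epi replicate 2 or replicate 3 the breed test called no entry, and miR-184 also lost its call against the accessory mean.

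The 10 most abundant entries took up a like share of the RPM in both groups, 85.4% ± 4.73 (SD, n = 6) in Epi and 84.2% ± 4.34 (SD, n = 18) in the accessory glands. The difference of 1.25 percentage points was within the spread between libraries (exact two-sided permutation test over 134596 splits, p = 0.554).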

How the data were processed

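Small RNA libraries were made by the submitters with the NEBNext small RNA kit and sequenced on an Illumina instrument. Per the study's methods, adapters were removed with cutadapt, reads of other small RNAs were filtered with Bowtie (version 1.3.1 in the processing notes), and miRNAs were predicted and counted with miRDeep2 on susScr11. The authors deposited RPM per miRNA entry, and RNA-seq transcript levels as TPM, which were summed per gene here. RPM were put on log2(RPM + 1) with a filter of 1 RPM in 3 libraries and fitted with limma 3.58.1 (trend, R 4.3.3) with gland and breed as terms. The miRNA lists and the libraries compared were chosen with earlier results of these data known. The rule for named miRNAs took, among called known names whose 6 Epi libraries lay all above or all below the 18 others, the 10 largest changes and the 5 most abundant per direction, and 3 predicted ones per direction. Whole multiples of 1 read (within 0.1 of a step) made up at least 96.83% of low values in 22 libraries. Those reads entered edgeR 4.0.16, and the other 2 libraries were left out of it. Alternatives were size factors, pseudocount 0.1, no filter or 10 RPM, a filter over all 30 libraries, other model terms, 1 entry per mature name, a replicate block, and leaving out libraries or glands. The fits were tested on simulated data. With no UMIs, depth covers counting error only. The result for 1 further host gene is not reported here. The figures were drawn with matplotlib 3.10.9.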

Additional observations from a re-analysis of the deposited data

Results flagged for a closer look

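The breed test singled out miR-184, whose epididymis difference was larger in BMI than in DSE by 6.70 on the log2 scale (limma adjusted p = 0.0197). Its PG and BG values were all higher in DSE than in BMI. The call was lost without BMI Epi replicate 2 or replicate 3.

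Among 260 sets of 6 libraries (4 glands for each of 65 called names), 18 (6.92%) had a library far from the other 5 by Dixon's criterion on log2(RPM + 1). Chance gives about 5% for independent sets of normal values. These sets share libraries, and some hold values near 0 RPM. The values below are in RPM. BMI VG replicate 1 was such a library for miR-143-3p (41804 RPM against 298917 in the nearest), miR-744 (10.4 RPM), miR-96-5p (199 RPM) and chr6_32302 (1036 RPM). BMI PG replicate 3 was one for miR-143-3p (30078 RPM against 293936 in the nearest), miR-744 (21.8 RPM), miR-335 (6.62 RPM), miR-214-3p (42.3 RPM) and miR-1307 (27.1 RPM). DSE BG replicate 3 was one for miR-133b (15.9 RPM) and miR-574-5p (85.1 RPM), DSE BG replicate 1 for miR-29c (13.99 RPM), and BMI PG replicate 2 for chr3_26315 (6.03 RPM against 0.12 in the nearest). In Epi, BMI replicate 2 was far from the others for chrX_49528 (22.5 RPM against 1.96) and DSE replicate 2 for miR-29c (5.37 RPM). In VG, DSE replicate 2 was the highest for miR-615 (0.75 RPM) and chrX_49198 (0.1 RPM), and DSE replicate 3 the lowest for miR-34c (1.80 RPM).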

How the results depend on the processing

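Size factors gave 38 higher and 25 lower entries against the accessory mean, 62 and 55 against VG, and 39 lower than BG. All 38 and 14 of the 25 were also called with RPM. A pseudocount of 0.1 gave 25 lower entries, edgeR on whole reads 25 lower than the mean, 47 lower than VG and 56 lower than BG, and leaving out VG 24 lower. At 10 RPM or more, 68 were higher than VG and 23 than PG. RPM without miR-143-3p and miR-148a-3p gave 106 higher than the mean and 73 higher than PG. Breed dependence fell to 0 entries with no filter, a filter over 30 libraries, edgeR, without the 2 libraries that stood apart, and without the 2 abundant miRNAs. miR-10a-5p turned to -0.66 on the log2 scale without BG. The difference in the share of the most abundant entries turned to -0.15 percentage points with 20 entries (exact permutation p = 0.906).

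Leaving out 1 library at a time gave 47 to 69 higher and 10 to 21 lower than the mean, 87 to 108 and 11 to 19 against VG, 29 to 48 and 17 to 35 against PG, 58 to 71 and 19 to 37 against BG, 0 to 6 with breed dependence, and a share difference of 0.0729 to 2.48 points. The 17 entries lower than PG came without DSE PG replicate 2, and the 6 with breed dependence without BMI Epi replicate 1. Of 65 called names, 41 kept their call without each library in turn, and 27 in every setting in which they were tested.

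Deviations of same-numbered libraries from their group means had a median r of 0.02 over 36 pairs, 12 of them above 0.1. Pairs of other numbers had a median r of -0.006 over 72 pairs, 18 of them above 0.1. These values do not settle whether equal numbers stand for 1 boar. With a replicate block the counts stayed at 62 higher and 14 lower, the same entries, and the share difference at 1.25 points (exact sign-flip p = 0.406). Depth limits entries near 1 RPM, where a library holds few reads.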
